A study of Mus musculus with 24 samples.

Results

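Genes of the red cell lineage were followed across mouse thymus of 4 genotypes, 8 in all: the haemoglobin genes Hba-a1 and Hbb-b1, the heme synthesis gene Alas2, the membrane genes Slc4a1, Epb42, Ank1 and Ermap, and the transcription factor gene Klf1. Probes were chosen by the gene name printed for them on the array, which gave 15 probes of 7 of the genes among 41174 gene probes of the array. Epb42 stands on the array under the older name Epb4.2, and its 2 probes were found through their accession, so that 17 probes of all 8 genes were followed. A filter required the scanner software to mark the Cy5 signal as well above background on 6 or more arrays. It kept 15 of these 17 probes, at least 1 for each gene, among 35185 probes of 24784 genes in all; the 2 probes it left out belong to Ank1. The brightest kept probe of a gene is called its leading probe.

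Each genotype was represented by 6 C57BL/6 mice aged 15 weeks, 3 females and 3 males per genotype, and the sex of each mouse was not given. The genotypes were wild type, p27 knockout (p27Kip1, encoded by Cdkn1b, inhibits cyclin-dependent kinases), stathmin knockout (stathmin, encoded by Stmn1, destabilises microtubules) and double knockout of both genes. The study addressed the roles of both proteins in cell proliferation in the animal. Whole-thymus RNA was labelled with Cy5 and hybridised against Cy3-labelled RNA pooled from fibroblasts of every genotype, so each value below is a log2 ratio of thymus over the fibroblast pool for 1 probe, and 0 means a level equal to the pool. Levels of different probes are not comparable with each other.

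Red cells carry oxygen on haemoglobin, which is built from alpha and beta globin chains and heme. Their precursors mature in the bone marrow, and in the spleen of mice, under the control of factors such as GATA1 and KLF1, and reticulocytes in the blood still contain globin RNA. The thymus is chiefly a site of T cell maturation, and whole-thymus RNA includes RNA from the blood left in the organ. In such bulk RNA, fewer cells of a type and less RNA per cell cannot be told apart.

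The 250 bases before the annotated start are shown for Hba-a1 and Hbb-bt, which encode both chains of adult haemoglobin, for Alas2, which starts heme synthesis, and for Ermap, the member with the lowest adjusted p in any comparison. The accession of all 4 Hbb-b1 probes belongs to Hbb-bt in the GRCm38.p6 gene table, so the beta globin sequence is that of Hbb-bt. Sequences are from RefSeq, GRCm38.p6, written from 5′ to 3′ on the strand of the gene: Hba-a1 at chr11:32283422-32283671, plus strand; Hbb-bt at chr7:103813924-103814173, minus strand; Alas2 at chrX:150547167-150547416, plus strand; Ermap at chr4:119189996-119190245, minus strand. Capitals mark matches, on either strand, to GATA motifs (TGATAA, also with A as its first letter or G as its last) or to a CACCC-type motif (CCNCNCCC).
Hba-a1: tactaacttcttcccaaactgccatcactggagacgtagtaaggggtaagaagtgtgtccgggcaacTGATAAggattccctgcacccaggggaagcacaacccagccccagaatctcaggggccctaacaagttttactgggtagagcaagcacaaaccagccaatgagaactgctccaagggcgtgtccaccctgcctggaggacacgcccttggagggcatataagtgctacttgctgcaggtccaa
Hbb-bt: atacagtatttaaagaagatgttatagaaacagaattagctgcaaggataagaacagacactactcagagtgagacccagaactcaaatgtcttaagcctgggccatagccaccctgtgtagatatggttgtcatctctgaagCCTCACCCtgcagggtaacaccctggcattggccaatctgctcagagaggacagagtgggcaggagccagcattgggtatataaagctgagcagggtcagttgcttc
Alas2: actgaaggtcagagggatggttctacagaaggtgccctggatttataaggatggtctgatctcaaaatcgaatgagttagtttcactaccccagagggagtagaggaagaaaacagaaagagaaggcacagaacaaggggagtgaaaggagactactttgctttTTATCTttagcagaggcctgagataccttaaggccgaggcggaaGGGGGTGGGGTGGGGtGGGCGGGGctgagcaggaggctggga
Ermap: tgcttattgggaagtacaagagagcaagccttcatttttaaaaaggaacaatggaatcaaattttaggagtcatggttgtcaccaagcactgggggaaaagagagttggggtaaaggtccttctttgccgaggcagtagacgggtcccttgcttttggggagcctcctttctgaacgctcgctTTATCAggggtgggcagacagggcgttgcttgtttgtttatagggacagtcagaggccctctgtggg

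A window was found for 6 of the 8 genes, all but Slc4a1 and Ank1. The GATA motif was present in 5 of the 6, in Hba-a1, Alas2, Epb42, Ermap and Klf1, and in 26.5% of all 32851 windows of the same length. The CACCC-type motif was present in 2 of the 6, Hbb-bt and Alas2, and in 45.9% of all windows. In Alas2 it matched 4 times on the opposite strand, and some of these matches overlap each other; no CACCC-type match overlapped a GATA match. A match in these letters is a description of the window.

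The thymus label and the arrays were checked before the erythroid values were read. Stmn1 was between -3.80 and -1.87 in both genotypes without stathmin and between 0.79 and 3.34 in the others, and Cdkn1b was between -1.41 and 0.98 without p27 and between 1.21 and 2.30 in the others, with the Cdkn1b spot of 1 wild-type and 1 double knockout mouse left out as an outlier. The median of 10 double-positive thymocyte markers was 5.05 to 7.45 on 23 arrays and 0.28 in p27 knockout replicate 6, so that the library labelled as thymus in that replicate stood near the fibroblast level for thymocyte genes. The 99th percentile of raw Cy5 signal was 19382 units in p27 knockout replicate 6 and 50698 units in p27 knockout replicate 5, the lowest of the 24, against 56302 to 339834 units in the other 22. Replicate 6 of the p27 knockout stood apart in both measures. Replicate 5 of that genotype was low in Cy5 signal only, and its thymocyte marker median of 7.45 was the highest of the 24. Changes called in comparisons with the p27 knockout are therefore given with and without both arrays. The arrays lay on 6 slides, with 1 array of each genotype at a fixed position per slide, and an effect of array position cannot be told apart from one of genotype. The number of arrays limits the precision.

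The haemoglobin genes were far above the fibroblast pool on 23 of the 24 arrays. Hba-a1 encodes an alpha chain of adult haemoglobin, and its 2 probes cannot be separated from the near-identical Hba-a2. Its leading probe, A_52_P208681, ran from 4.48 through a median of 5.01 to 5.51 in the 6 wild-type mice. It ran from 1.01 through 6.10 to 6.71 among p27 knockout mice, from 4.66 through 5.70 to 6.40 among stathmin knockout mice, and from 4.84 through 5.73 to 7.11 among double knockout mice. The ranges of all 4 genotypes overlapped, and in the order of the medians (wild type, stathmin knockout, double knockout, p27 knockout) no neighbours differed beyond their spread. The value of 1.01 belonged to p27 knockout replicate 6, where the raw Cy5 signal of the probe was 503 units against a median of 140780 over the 24 arrays; the other 5 p27 knockout mice averaged 6.10 ± 0.50 (SD, n = 5).

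Hbb-b1 encodes a beta chain of adult haemoglobin; probes of the beta globin cluster may share signal between near-identical copies. Its leading probe, A_52_P213909, ran from 3.75 through 4.64 to 5.66 among wild-type mice and from 0.63 through 5.42 to 6.69 among p27 knockout mice. In the stathmin knockout it ran from 4.27 through 4.89 to 5.65 and in the double knockout from 4.25 through 4.76 to 6.36. Again the lowest of the 24 values was that of p27 knockout replicate 6, and the genotypes overlapped. The 3 further Hbb-b1 probes and the second Hba-a1 probe showed the same array at -0.42 to 1.16, while the lowest value among the other 23 arrays was 4.45 for Hba-a1 A_52_P278538. In double knockout replicate 3, which had the highest value of its genotype on all 6 haemoglobin probes, 3 of those probes were saturated in Cy5, so their values there are lower limits.

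Alas2 encodes the erythroid form of 5-aminolevulinate synthase, which starts heme synthesis in red cell precursors. Its probe ran from 0.42 through 2.93 to 3.51 among wild-type mice, from -0.64 through 3.25 to 3.71 among p27 knockout mice, from 2.26 through 3.59 to 4.44 among stathmin knockout mice and from 2.89 through 3.85 to 4.83 among double knockout mice. Wild-type replicate 6 and p27 knockout replicate 6 were the 2 low mice, and the lowest double knockout mouse lay at 2.89. The spread between wild-type mice, 1.17 (SD, n = 6), was close to the difference between the wild-type and double knockout means, 2.47 and 3.80.

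**Figure D1:**
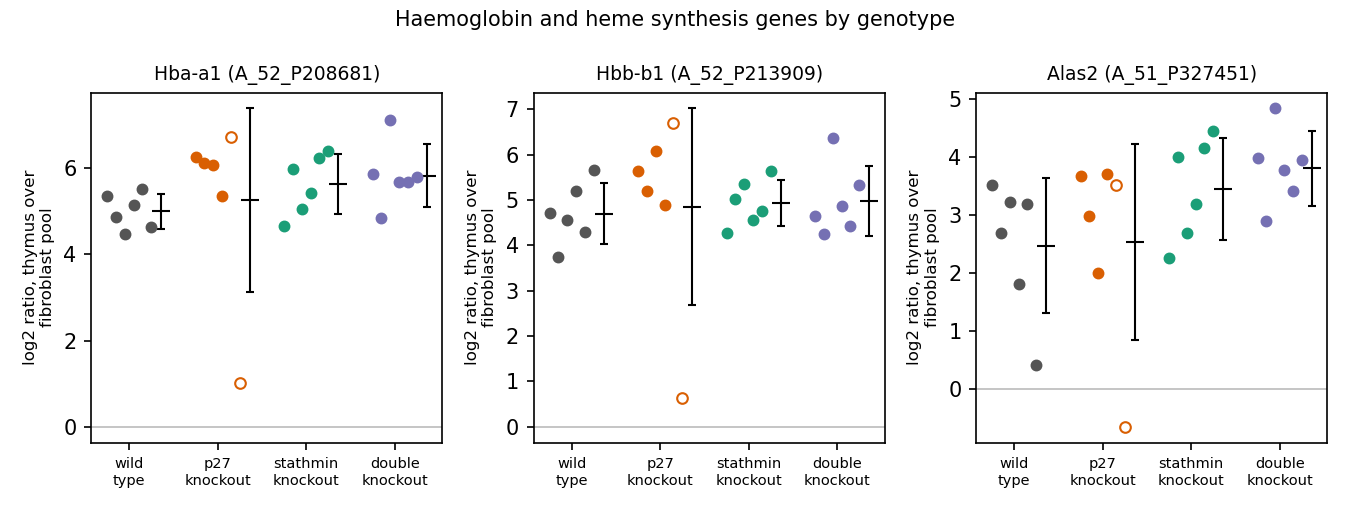
Log2 ratio of thymus over the fibroblast pool (vertical axis) for the leading probes of Hba-a1 and Hbb-b1 and for Alas2 in each mouse, by genotype; the open circles are p27 knockout replicates 5 and 6, and the bars at the right of each group are the mean and SD of 6 mice. The lowest open circle, p27 knockout replicate 6, lies at 1.01, 0.63 and -0.64, below every other mouse in each panel.

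The membrane genes and Klf1 lay much nearer to the level of the fibroblast pool. Slc4a1 encodes band 3, the anion exchanger of the red cell membrane. Its probe ran from -0.06 through 0.07 to 0.82 among wild-type mice, from 0.25 through 0.39 to 0.96 among p27 knockout mice, from -0.21 through 0.43 to 1.09 among stathmin knockout mice, and from 0.33 through 1.05 to 1.75 among double knockout mice. All 4 genotypes overlapped, with the double knockout highest in median; 4 of its 6 mice lay above every wild-type mouse.

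Epb42 encodes protein 4.2, which ties band 3 to the membrane skeleton. Its leading probe, A_52_P73126, ran from -0.07 through 0.26 to 0.69 among wild-type mice, from 0.12 through 0.49 to 1.64 among p27 knockout mice, from -0.42 through 0.19 to 0.68 among stathmin knockout mice and from 0.07 through 0.90 to 1.42 among double knockout mice. Among the p27 knockout mice the highest value was that of replicate 6, the mouse lowest in haemoglobin. The second probe, A_51_P122535, had genotype means between 0.13 and 0.65, with the p27 knockout highest, so the 2 probes disagree on which genotype leads; they correlated by 0.51 over the 24 arrays and by 0.30 over the 22 without p27 knockout replicates 5 and 6.

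Ermap encodes an erythroblast membrane protein of the immunoglobulin superfamily. Its probe ran from 0.08 through 0.49 to 1.23 among wild-type mice, from 0.02 through 0.28 to 0.96 among p27 knockout mice, from 0.21 through 0.62 to 1.23 among stathmin knockout mice and from 0.87 through 1.02 to 1.77 among double knockout mice. The 6 double knockout mice were high and close together, apart from replicate 1 at 1.77, and only 1 p27 knockout mouse, at 0.96, reached into their range. Klf1, the gene of the erythroid Krüppel-like factor that activates beta globin, had medians of -0.34 among wild-type mice, -0.49 among p27 knockout mice, -0.16 in the stathmin knockout and -0.51 among double knockout mice, with all 24 values between -0.93 and 0.33. Signals were low for several of these probes: the Cy3 signal of Ermap, of both Epb42 probes and of Ank1 A_52_P655842 was well above background on 0 of the 24 arrays and that of Klf1 on 4. The Cy5 signal was well above background on 12 (Epb42 A_52_P73126), 11 (Epb42 A_51_P122535), 9 (Ank1 A_52_P655842), 16 (Klf1) and 21 (Ermap) of the 24 arrays. For each Epb42 probe this held in 1 of 6 wild-type and 3 of 6 double knockout mice. The ratios of all these probes to the pool, and changes between genotypes on that scale, therefore rest on dim spots.

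**Figure D2:**
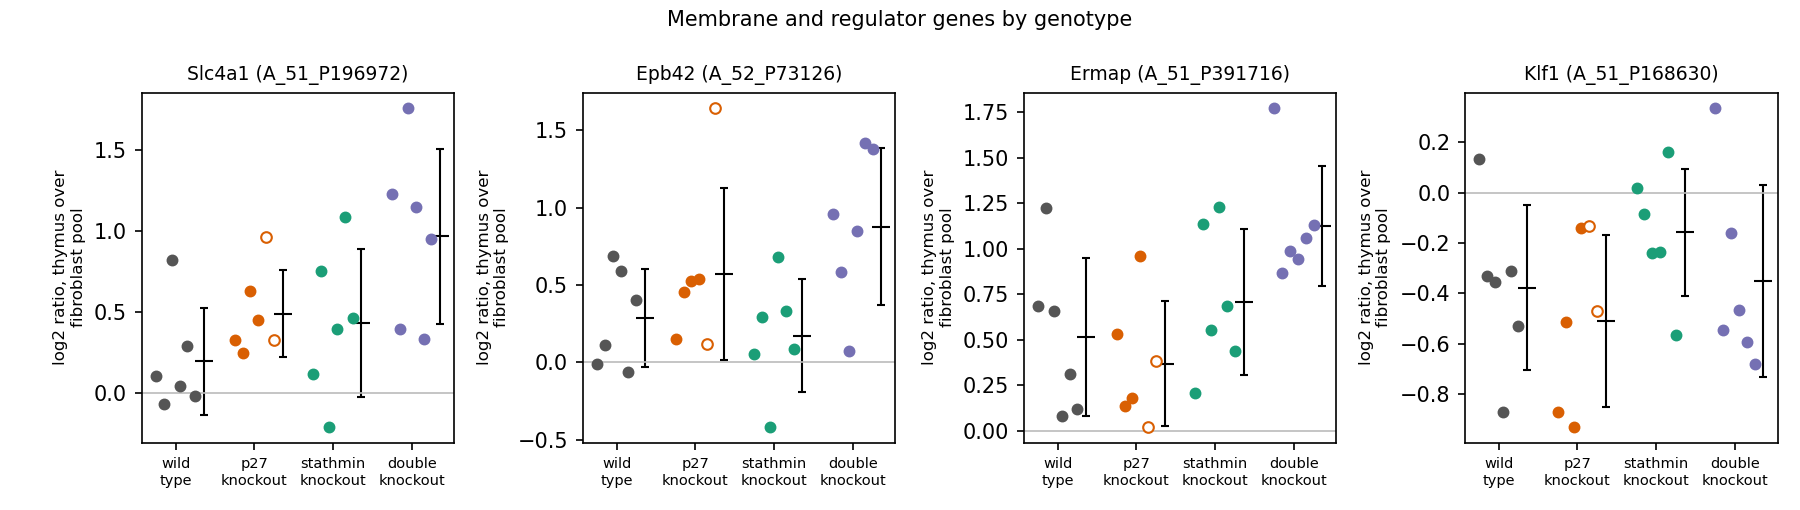
Log2 ratio of thymus over the fibroblast pool (vertical axis) for Slc4a1, Epb42, Ermap and Klf1 in each mouse, by genotype, with open circles for p27 knockout replicates 5 and 6 and bars for the mean and SD of 6 mice. For Ermap the double knockout mice lie between 0.87 and 1.77 and the p27 knockout mice between 0.02 and 0.96.

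Ank1 encodes ankyrin-1, which links band 3 to spectrin in red cells and is also made, in short forms, in skeletal muscle. Its leading probe, A_51_P269375, ran from -1.75 through -1.15 to -0.24 among wild-type mice, from -1.83 through -1.05 to 0.60 among p27 knockout mice, from -1.89 through -0.69 to -0.12 among stathmin knockout mice and from -1.89 through -0.88 to 1.83 among double knockout mice. The highest value of all, 1.83, was that of double knockout replicate 2. That mouse was also the highest on A_52_P562817, at 2.94, and on A_52_P655842, at 1.92.

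Markers of skeletal muscle moved with Ank1. The median log2 ratio of 12 muscle genes, a list added after the values were seen, was 2.80 to 5.36 on 6 arrays (double knockout replicates 2 and 4, wild-type replicate 5, stathmin knockout replicates 5 and 6 and p27 knockout replicate 2) and -0.63 to 1.03 on the other 18. Over the 24 arrays, which share the fibroblast pool, the correlation of the 3 Ank1 probes with this median was 0.66, 0.82 and 0.68. For the 12 other erythroid probes it lay between -0.27 and 0.32. The 2 Ank1 probes left out by the filter were well above background on 2 arrays and on 1 array, and their genotype means lay between -0.50 and -0.10.

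**Figure D3:**
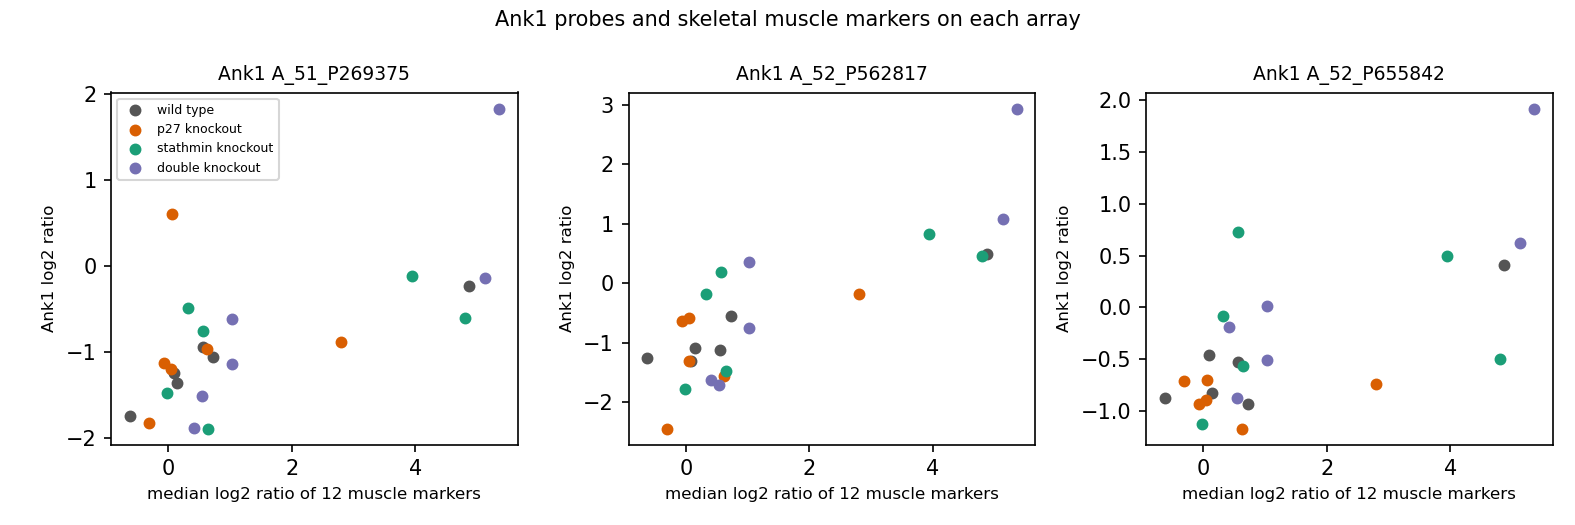
Log2 ratio of each kept Ank1 probe (vertical axis) against the median log2 ratio of 12 skeletal muscle markers (horizontal axis), 1 point per mouse and coloured by genotype. Double knockout replicate 2, at a muscle median of 5.36, is the highest point in each panel, at 1.83, 2.94 and 1.92.

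The double knockout was compared with wild type first, to ask what loss of both proteins changed. No erythroid probe passed the test: limma called 0 of the 15 at an adjusted p of 0.05. Of all 35185 probes 0.0114% were called (0.00284% higher and 0.00853% lower), so a lack of calls does not show a lack of change. All 15 estimates lay above 0, with a median of 0.67 against -0.02 over all probes. At an unadjusted p under 0.05 the count was 5 of 15, against 4.63% of all probes. Those 5 were Slc4a1, Ermap, both Epb42 probes and Alas2. Each Epb42 probe was well above background in Cy5 in only 1 of 6 wild-type mice. None of the 15 probes separated the 6 double knockout from the 6 wild-type mice; both groups did not overlap for 0.949% of all probes. When log ratios were scaled to a common spread between arrays, 10 of the 15 estimates lay above 0, so the shared direction depends on that choice.

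Slc4a1 had the lowest adjusted p of the members in this comparison: its mean was 0.97 ± 0.54 (SD, n = 6) in the double knockout and 0.20 ± 0.33 (SD, n = 6) in wild type, a difference of 0.77 (SE 0.24, adjusted p = 0.451), above 0 on 6 of 6 slides. Alas2 differed by 1.33 (SE 0.63, adjusted p = 0.9997), also above 0 on 6 of 6 slides. The differences of Ermap and Epb42 were 0.61 and 0.59. Hba-a1 differed by 0.82 on its leading probe, with a 95% interval from -0.50 to 2.15. The leading Hbb-b1 probe differed by 0.28, with an interval from -1.08 to 1.65, and had wild-type and double knockout means of 4.70 and 4.98. On the further Hbb-b1 probes these means lay wider apart, at 5.37 and 6.04 (A_51_P374468), 5.96 and 6.65 (A_52_P260346), and 7.28 and 8.05 (A_51_P374476). Ank1 differed by 0.52 and Klf1 by 0.03. None of the 8 differences passed the test.

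Against the p27 knockout, the double knockout shows what loss of stathmin adds when p27 is absent. Of the 15 probes 2 rose (13.3%), where 30% of all probes were called, 13.3% of all probes higher and 16.8% lower. Ermap was 1.13 ± 0.33 (SD, n = 6) in the double knockout and 0.37 ± 0.34 (SD, n = 6) in the p27 knockout, and rose by 0.76 (SE 0.23, adjusted p = 0.0176), 1.69-fold, on 6 of 6 slides. Without p27 knockout replicates 5 and 6 its difference was 0.68 (adjusted p = 0.0637), and 15% of all probes were then called. It was 0.82 without the 6 arrays of high muscle markers (adjusted p = 0.0671). With any 1 mouse left out, p27 knockout replicate 6 among them, Ermap kept its call, at 0.63 to 0.88 (limma adjusted p = 0.00769 to 0.0465). Ank1 A_52_P655842 rose by 1.02 (SE 0.37, adjusted p = 0.0401), also on 6 of 6 slides. Its difference was 1.10 without p27 knockout replicates 5 and 6 (adjusted p = 0.0729), 0.67 without double knockout replicate 2, the mouse of the highest muscle median (adjusted p = 0.108), and 0.49 without the 6 arrays of high muscle markers (adjusted p = 0.248). The call was also lost when p27 knockout replicate 1, 3, 4 or 5 or double knockout replicate 4 or 6 was left out. This probe was well above background in 2 of 6 p27 knockout and 3 of 6 double knockout mice. At an unadjusted p under 0.05 the count was 2 of 15, against 43.4% of all probes. The share called was below the share over all probes, and 0 of 15 were called without these 2 mice.

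The other members did not pass the test in this comparison. Alas2 differed by 1.26 (adjusted p = 0.123) and by 0.71 without p27 knockout replicates 5 and 6. Slc4a1 differed by 0.48 and Epb42 by 0.31, with 0.55 and 0.46 without those mice. Klf1 differed by 0.16 and by 0.26 without those mice, and the leading Ank1 probe by 0.32. For the haemoglobin genes the sign turned with the same 2 mice: the leading probe of Hba-a1 went from 0.57 to -0.13 and that of Hbb-b1 from 0.13 to -0.47. With all mice, the p27 and double knockout means on the further Hbb-b1 probes were 5.60 and 6.04 (A_51_P374468), 6.04 and 6.65 (A_52_P260346), and 7.04 and 8.05 (A_51_P374476). All 6 haemoglobin probes were above 0 with all mice and below 0 without the 2.

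**Figure D4:**
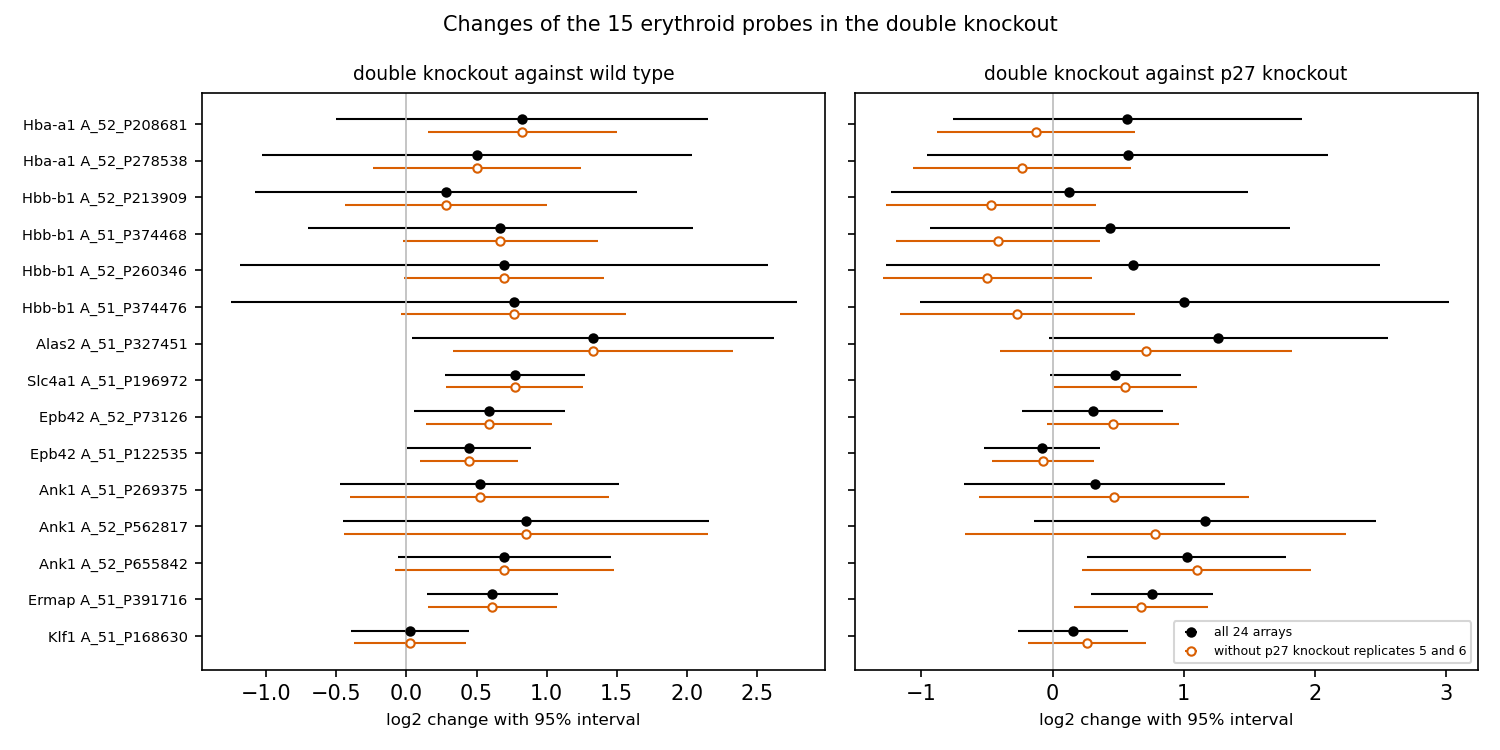
Log2 change with its 95% interval (horizontal axis) for each of the 15 erythroid probes (vertical axis), double knockout against wild type at left and against p27 knockout at right; filled points use all 24 arrays and open points leave out p27 knockout replicates 5 and 6. In the right panel the Hba-a1 leading probe moves from 0.57 to -0.13 when those mice are left out.

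In each single knockout against wild type, which asks what loss of 1 protein does, 0 of the 15 probes passed the test. For the p27 knockout, limma called 0.00568% of all probes, a count of 2 that was 4111 without wild-type replicate 6, 3927 without p27 knockout replicate 1, 3838 without replicate 4 and 2378 without replicate 2, with 0 of the 15 members called each time. With all mice 1 member had an unadjusted p under 0.05, against 29.3% of all probes, and 9 of 15 estimates lay above 0, with a median of 0.08 against 0.07 over all probes. Hba-a1 differed by 0.26 and Hbb-b1 by 0.15 with all mice, while 1 further probe of each gene lay below 0, at -0.07 and -0.24. Without p27 knockout replicates 5 and 6 the leading probes of Hba-a1 and Hbb-b1 differed by 0.95 and 0.75, with adjusted p = 0.375 and 0.385. The median of the 15 members was then 0.52 against 0.06 over all probes. The direction of both genes also depends on scaling, since each was below 0 when log ratios were scaled between arrays.

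For the stathmin knockout, 0.00284% of all probes were called; 0 members had an unadjusted p under 0.05, against 2.37% of all probes. There 14 of 15 estimates lay above 0, with a median of 0.32 against -0.01 over all probes. Between the double and the stathmin knockout, where 0.00568% of all probes were called, 0 of 15 members passed the test. An unadjusted p under 0.05 was found for 2 members, against 1.16% of all probes. There 14 of 15 estimates lay above 0, with a median of 0.24. The interaction tests whether the effect of losing both proteins departs from the sum of both single effects. It called 0 of 15 members and 0% of all probes. At an unadjusted p under 0.05 it called 0 members and 18.4% of all probes. These comparisons share mice, so their values are not independent.

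Across the arrays, the haemoglobin probes varied together from mouse to mouse. Pairs of the 6 haemoglobin probes correlated by 0.87 to 0.99 over 24 arrays and by 0.59 to 0.98 over the 22 without p27 knockout replicates 5 and 6. The leading probes of Hba-a1 and Hbb-b1 were the lowest of these pairs, at 0.87 and 0.59, and the gene pairs that follow use leading probes. Hba-a1 and Alas2 correlated by 0.81 over 24 arrays and by 0.67 over 22. The leading Hbb-b1 probe and Alas2 correlated by 0.54 over 24 arrays and by 0.05 over 22. The further Hbb-b1 probes were not compared with Alas2. Alas2 and Slc4a1 correlated by 0.57 and 0.67, and Alas2 and Ermap by 0.48 and 0.57. In contrast, Hbb-b1 and Ermap correlated by -0.15 and -0.32, and Hba-a1 and Klf1 by 0.07 and -0.03. All arrays share the pool in Cy3 and mix genotypes, so these are descriptions.

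The genes with the pattern most like the mean of the 8 standardised members, among 24018 genes with a value on every array, were Misp (r = 0.87), Pigz (0.84), Plekha7 (0.84), Sptb (0.82) and Clip4 (0.82) over 24 arrays. Over the 22 arrays they were LOC383229 (0.89), Defb42 (0.82), Apol10b (0.80), A330102K04Rik (0.79) and Ache (0.79). The 5 genes of each set differed, so the ranking depends on those 2 mice.

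Other genes of the red cell pathway were read from 5 lists, of which 56 entries were tested. Epb41 makes up 2 entries, 1 probe under that name and 1 under the older name Epb4.1. In the double knockout against wild type 0 of the 56 passed the test, and 39 of 56 lay above 0 with a median of 0.16. Against the p27 knockout, 6 were higher and 2 lower, where 13.3% of all probes were called higher and 16.8% lower. Without p27 knockout replicates 5 and 6 the counts were 4 and 3, where 15% of all probes were called. By list, 1 of 4 globins and globin partners rose, and 1 of 15 genes of heme synthesis and iron uptake rose. Of 15 membrane and cytoskeleton entries, 2 rose and 1 fell. Of 11 red cell enzymes and maturation genes, 2 rose and 1 fell, and 0 of 11 regulators and receptors passed. In the 4 other comparisons 0 of 56 passed.

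Eraf, the erythroid associated factor that stabilises free alpha globin chains, had the lowest p of the listed genes in both comparisons above. It was 1.70 to 2.76 in the 6 double knockout mice, with a median of 2.20, against 0.10 to 1.31 among wild-type mice (median 0.76), -0.30 to 1.36 among p27 knockout mice (median 0.49) and 0.16 to 2.07 among stathmin knockout mice (median 1.37). Every double knockout mouse lay above every wild-type and every p27 knockout mouse, while the stathmin knockout overlapped. Groups did not overlap for 0.949% of all probes in the comparison with wild type and for 12.6% in that with the p27 knockout. Eraf was named for its p from the same values, so this separation is not independent of that choice. Eraf rose by 1.73 (SE 0.32, adjusted p = 0.00370) against the p27 knockout and by 1.59 without p27 knockout replicates 5 and 6 (adjusted p = 0.0208). Against wild type it differed by 1.54 (adjusted p = 0.102), and with the spread estimated without those 2 mice the adjusted p was 0.0473.

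Sptb, the gene of the beta spectrin of the red cell skeleton, ran from 0.98 to 2.41 among double knockout mice (median 1.87), from -0.10 to 1.41 among wild-type mice (median 0.65), from -0.43 to 1.08 among p27 knockout mice (median 0.34) and from 0.16 to 1.72 among stathmin knockout mice (median 1.18). It rose by 1.36 against the p27 knockout (adjusted p = 0.00604) and by 1.34 without p27 knockout replicates 5 and 6 (adjusted p = 0.0222). Against wild type it differed by 1.17 (adjusted p = 0.298). The highest Sptb value of the wild type (replicate 5), the stathmin knockout (replicate 5) and the double knockout (replicate 2) each belonged to 1 of the 6 arrays of high muscle markers. Without those 6 arrays the difference from the p27 knockout was 1.09 (adjusted p = 0.0478). Dmtn (dematin, a protein of the same skeleton) rose by 1.60 against the p27 knockout, and the difference was 1.06 without p27 knockout replicates 5 and 6 (adjusted p = 0.0602). Alad, which follows Alas2 in heme synthesis, rose by 0.86, and by 0.72 without those mice (adjusted p = 0.0456). Cat (catalase) rose by 1.58 and Bpgm (bisphosphoglycerate mutase) by 0.65. Without p27 knockout replicates 5 and 6 the differences of Cat and Bpgm were 0.90 (adjusted p = 0.0382) and 0.42 (adjusted p = 0.114). Without double knockout replicate 3 that of Bpgm was 0.54 (adjusted p = 0.0534).

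Tspo2, a member of the translocator protein family found in red cell precursors, went the other way. It was 0.37 to 3.46 in the p27 knockout (median 1.35) and -0.64 to -0.08 in the double knockout (median -0.40), and fell by 2.20 on the log2 scale between them (adjusted p = 0.00383). Its 2 highest values were those of p27 knockout replicates 5 and 6, and without them it fell by 1.39 (adjusted p = 0.0216). Prdx2, the peroxiredoxin of the red cell, fell by 0.88 in the same comparison, and by 0.55 without those mice (adjusted p = 0.0420). In the p27 knockout against wild type, Tspo2 differed by 1.74 (adjusted p = 0.0790), Prdx2 by 0.67 (adjusted p = 0.0810) and Cat by -1.16 (adjusted p = 0.0843). These differences were, without p27 knockout replicates 5 and 6, 0.93 (adjusted p = 0.375), 0.35 (adjusted p = 0.385) and -0.48 (adjusted p = 0.415).

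**Figure D5:**
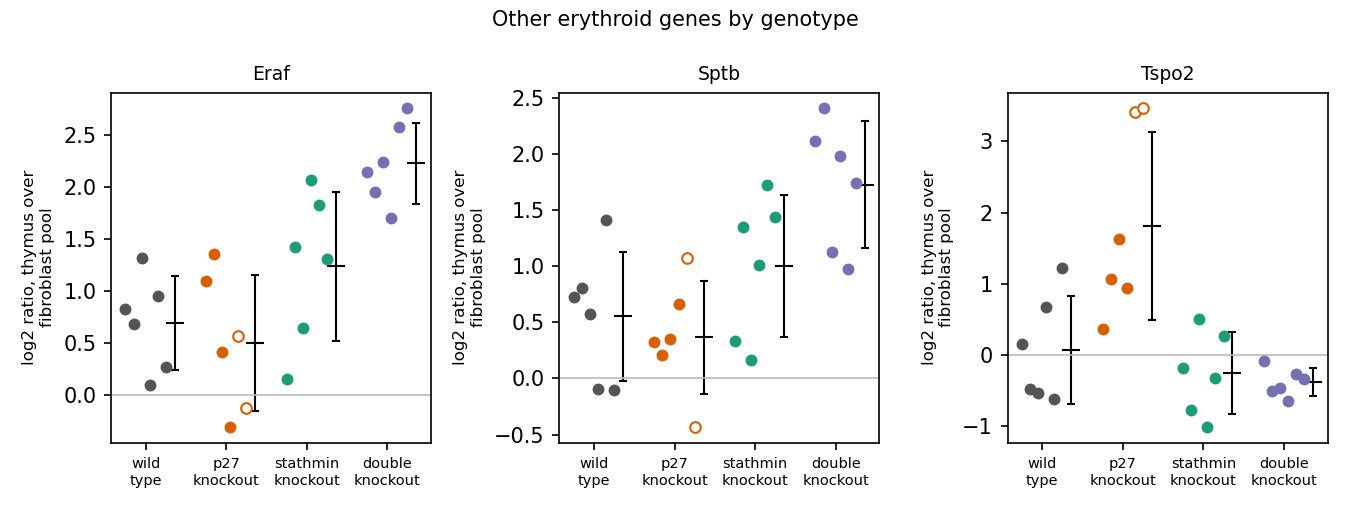
Log2 ratio of thymus over the fibroblast pool (vertical axis) for Eraf, Sptb and Tspo2 in each mouse, by genotype, with open circles for p27 knockout replicates 5 and 6 and bars for the mean and SD of 6 mice. The double knockout mice lie at 1.70 to 2.76 for Eraf, and the 2 open circles are the highest points for Tspo2.

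The remaining genes with the lowest p in a comparison did not pass the test. Hbb-y, an embryonic beta-like globin gene, was 0.71 higher in the double knockout than in wild-type mice (adjusted p = 0.626). In the stathmin knockout against wild type, the embryonic globin genes Hba-x and Hbb-bh1 differed by 0.53 and -0.84, and Aqp1, a water channel of the red cell membrane, by 0.49. Against the stathmin knockout, the double knockout differed by 0.99 for Eraf, 0.72 for Sptb and 0.36 for Bpgm. The interaction estimates were -1.87 for Tspo2, 1.18 for Eraf and -0.93 for Aqp1, each with an adjusted p of 0.258. When p27 knockout replicates 5 and 6 were left out they were -1.06, 1.04 and -0.63, with adjusted p = 0.488, 0.488 and 0.489.

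Markers of other cells that blood or the organ could bring are given beside these values, and their part in the results was not tested. In the double knockout against wild type, 9 of 9 endothelial markers were above 0 with a median of 0.76, 8 of 9 platelet and megakaryocyte markers with 0.49, 8 of 9 iron-recycling macrophage markers with 0.55, 6 of 8 adipocyte markers with 0.44 and 12 of 12 muscle markers with 1.06. Neutrophil markers were above 0 for 2 of 8, with a median of -0.69, fibroblast markers for 3 of 9 with -0.20, and double-positive thymocyte markers for 4 of 10 with -0.26. Per mouse, the platelet marker median ran from -0.41 to 0.06 among wild-type mice and from -0.20 to 1.15 among double knockout mice, and the neutrophil median from 0.20 to 2.10 and from -0.21 to 1.26. Against the p27 knockout, 5 of 8 adipocyte markers were called higher, 3 of 9 endothelial markers higher and 7 of 9 fibroblast markers lower in the double knockout, and without p27 knockout replicates 5 and 6 these counts were 1, 2 and 0. Also called with all mice were 1 of 9 platelet and megakaryocyte markers higher, 1 of 8 neutrophil markers lower and 2 of 12 muscle markers higher. Of 9 iron-recycling macrophage markers, 1 was higher and 1 lower. Without those mice, 0 platelet markers were called higher, 3 neutrophil markers lower, 1 muscle marker higher, and 1 macrophage marker higher and 0 lower. The shares over all probes were 13.3% higher and 16.8% lower with all mice, and 15% called without the 2. Of the 10 double-positive thymocyte markers, 0 were called lower with all mice and 6 without those 2.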

How the data were processed

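RNA of 24 thymi was hybridised on 2-colour Agilent arrays against 1 fibroblast pool, with the thymus in Cy5 throughout. Spot and background intensity was extracted by the authors with Feature Extraction 9.1.3.1 and no background subtraction, per the file headers; the deposited log10 ratios were dye-normalized, per the file headers. Neither the labels nor the headers say how the log2 table deposited by the authors was made. Its scale is log2, and its column medians ran from 8.64 to 10.6. On each array it rose with spot brightness over both channels (r of at least 0.9795). With the ratio of Cy5 over Cy3 it correlated by at most 0.25. It thus follows brightness, to which the fibroblast pool in Cy3 adds, far more closely than the ratio. Its centring stays unknown.

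From the intensities, limma 3.58.1 in R 4.3.3 gave log2 ratios (normexp with offset 50, loess within arrays), with outlier spots left out and spots of 1 probe averaged. Probes well above background in Cy5 on at least 6 arrays were kept. Genotype was the only term, all 24 arrays shared 1 estimate of spread, and p-values are limma's, Benjamini-Hochberg adjusted over 35185 probes (threshold 0.05), so sex was not modelled. The procedure was checked on simulated data with independent noise and no deviating array, so the check does not cover a mouse that departs from its group.

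Named were all members, 3 listed pathway genes of lowest p per comparison and 5 genes most like the members' mean. Alad, Dmtn, the changes of Bpgm, Prdx2 and Cat against the p27 knockout, and the muscle list were chosen after their values were seen. Members and lists were chosen with earlier results of these data known. Probe sequences were not used here.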

Additional observations from a re-analysis of the deposited data

Results flagged for a closer look

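Of 60 sets of 6 mice (15 probes in 4 genotypes), 10 held a mouse whose gap to its nearest neighbour, as a share of the whole range, was above Dixon's 95% critical value for 6 samples. Chance flags about 1 in 20 such sets when they are independent. These sets are not, since the probes share mice and the 6 haemoglobin probes correlated by 0.87 to 0.99. The count of 10 therefore cannot be set against that rate. In 7 of the 10 the mouse was p27 knockout replicate 6. It was the lowest of its genotype on the 6 haemoglobin probes, with shares of 0.759 and 0.726 for Hba-a1 (A_52_P208681 and A_52_P278538) and of 0.704, 0.850, 0.807 and 0.853 for Hbb-b1 (A_52_P213909, A_51_P374468, A_52_P260346 and A_51_P374476), and the highest for Epb42 A_52_P73126, with 0.722. Double-positive thymocyte markers stood at a median of 0.28 in the same mouse.

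Double knockout replicate 3 was the highest of its genotype for Hba-a1 A_52_P278538 (0.626), a spot that was saturated. Wild-type replicate 5, one of the 6 arrays with high muscle markers, was the highest of its genotype for Ank1 A_52_P655842 (0.648). Double knockout replicate 1 was the highest of its genotype for Ermap (0.711).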

How the results depend on the processing

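Over 36 other settings, 207 of 221 counts stayed within 1.5 times their value. Most of the 207 were a 0 that stayed 0, so they say little of stability. Of 1511 single changes 1431 kept sign and side of the threshold, 36 turned and 44 kept the sign only. Causes were not tested. For the double against the p27 knockout, 2 of the 15 probes changed, beside 10572 of all 35185. The count was 9 in the authors' table (18288 of all probes) and 1 when scaled between arrays (7119 of all). With 1 leading probe for each of the 8 genes it was 1, beside 7137 of 24784. Without p27 knockout replicates 5 and 6 it was 0 (5275 of all). It was also 0 without the 6 arrays of high muscle markers, chosen after seeing the data (4608 of all). With 1 mouse left out it was 1 to 2. It was 1 without p27 knockout replicate 1, 3, 4 or 5 or double knockout replicate 2, 4 or 6. Array weights gave 1 for the double knockout (388 of all) and 2 for the p27 knockout (3927 of all) against wild type. Both counts were 0 in the main setting. In the replicate block fit the count was 2, and it changed no other call; the replicate numbers did not pair the mice (14 of 36 correlations of deviations above 0.1, from -0.53 to 0.61). By slide 21 of 36 were above 0.1 (median 0.15), and with slide as a block the count was 2 and no named call changed. Of the 8 genes, 4 had their highest median in the double knockout. This was recomputed only with no background correction, Agilent's ratios, Cy5 alone, the authors' table and every probe of a gene, which gave 3 to 5. The genes behind the count changed. Both haemoglobin genes were highest in the p27 knockout in the main setting and in the double knockout on Cy5 alone. Ermap was highest in the stathmin knockout on Cy5 alone and in wild type in the authors' table.

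Counts over all probes ran from 4608 (without the high-muscle arrays) to 18288 (authors' table) around 10572 for the double against the p27 knockout, from 0 to 9266 (authors' table; up to 4111 with 1 mouse left out) around 2 for the p27 knockout, from 1 to 388 (array weights) around 4 for the double knockout and from 0 to 9 around 1 for the stathmin knockout against wild type, and from 0 to 21 around 2 for the double against the stathmin knockout. The authors' table moved the median of all probes to 0.68 in the double against the p27 knockout, with 18067 of its calls higher and 221 lower, against 4675 of 10572 higher. Signs and counts from that table are those of spot brightness over both channels, pool included, not estimates of the ratio of thymus over pool.

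Signs turned as follows. Without the high-muscle arrays Ank1 was -0.38 in the double against the p27 knockout and -0.015 against wild type. In the authors' table Aqp1 was 0.30 (interaction), Epb42 -0.29, Ermap -0.21 and Klf1 -0.29 (double knockout against wild type), Hba-a1 -1.23, Hbb-b1 -1.08 and Prdx2 -0.23 (p27 knockout against wild type), Prdx2 0.37 (double against the p27 knockout) and Hba-x -0.028 (stathmin knockout against wild type). Agilent's ratios gave -0.046 for Epb42 and -0.15 for Hbb-b1 in the double against the p27 knockout. Array weights gave -0.26 for Hba-a1 and -0.44 for Hbb-b1 there, and -0.22 for Klf1 against wild type. Without p27 knockout replicates 5 and 6 the haemoglobins were -0.13 (Hba-a1) and -0.47 (Hbb-b1) in the double against the p27 knockout. In the p27 knockout against wild type, Cy5 alone gave -0.60 and -0.65 and scaling -1.23 and -1.18 for Hba-a1 and Hbb-b1; scaling gave -0.35 for Hbb-b1 in the double knockout against wild type. With 1 mouse left out, the double against the p27 knockout ran from -0.16 to 0.62 for Ank1 (below 0 without double knockout replicate 2), from -0.28 to 0.86 for Hba-a1 and from -0.72 to 0.50 for Hbb-b1 (both below 0 without p27 knockout replicate 6, Hbb-b1 also without double knockout replicate 3). Against wild type it ran from -0.11 to 0.13 for Klf1 in the double knockout, and from -0.037 to 1.10 for Hba-a1 and -0.21 to 1.00 for Hbb-b1 in the p27 knockout. Eraf against wild type had an adjusted p of 0.0417 without stathmin knockout replicate 1 and up to 0.354 without another mouse. Dim signals limit Epb42, Ermap, Klf1 and 1 Ank1 probe.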
